A study of Bos taurus with 11 samples.

Results

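The *miR-33* pair was followed in small RNA libraries of the bovine mammary gland (MG). The pair comprises *miR-33a* and *miR-33b*, which were taken by their identifiers, bta-miR-33a and bta-miR-33b, and are 2 of the 796 miRNAs of the deposited count table. The libraries came from mammary biopsies of lactating dairy cows, 5 Holstein and 6 Montbeliarde, with 1 library per cow. According to the methods, all cows were in mid-lactation on the same diet, and a Holstein cow with mastitis had been excluded. Breed was the only factor compared. Lactation number and days in milk varied between cows and are not given for single libraries. Libraries are named by breed and by the tag in their titles, CNLX1 to CNLX9 for Holstein and CNLX13 to CNLX23 for Montbeliarde. If these tags mark an order of preparation, which is not stated, it cannot be told apart from breed. Between 6087865 and 16808976 reads were counted on miRNAs per library.

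Both miRNAs lie inside genes of sterol regulatory element-binding proteins (SREBPs), the transcription factors that switch on lipid synthesis. SREBP-2, the product of *SREBF2*, mainly drives genes of cholesterol synthesis and uptake, whereas SREBP-1, the product of *SREBF1*, mainly drives genes of fatty acid and triacylglycerol synthesis, the milk fat pathway in the lactating MG. The miRNAs of the pair share their seed, the stretch that recognizes targets, and are known to repress the cholesterol exporter *ABCA1* and genes of fatty acid oxidation such as *CPT1A*. Rodents carry only *miR-33a*, so the cow, like the human, is a species in which both can be compared. In the RefSeq annotation of the ARS-UCD2.0 assembly, which is not the assembly used for the counts, *MIR33A* was the only miRNA gene within the span of *SREBF2* and *MIR33B* the only one within the span of *SREBF1*. Each had 1 locus. The mRNAs of the host genes were not measured here.

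In the lactating MG, *miR-33b* was the more abundant of the pair in every library, and neither miRNA passed the test between breeds. The mean normalized read count over the 11 libraries was 139 for *miR-33a* and 880 for *miR-33b*, which ranked them 198th and 124th among the 754 miRNAs detected. Normalized read counts are the raw counts divided by 1 factor per library. The median detected miRNA had a mean of 7.54, so that *miR-33a* was 18.4 times and *miR-33b* 117 times this median. Comparisons of level between miRNAs are of reads per mature miRNA, and adaptor ligation, which can favour some sequences over others, was not tested. By mean level, *miR-33a* stood between *miR-455-5p* (141) and *miR-362-3p* (136), and *miR-33b* between *miR-133a* (882) and *miR-361* (812). These neighbours lay well within the spread of *miR-33a* and *miR-33b* between cows.

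In Holstein, *miR-33a* had normalized read counts of 147 in CNLX1, 174 in CNLX3, 150.2 in CNLX5, 121 in CNLX7 and 108 in CNLX9. In Montbeliarde, its lowest count was 96.3, in CNLX21, its median was 151, and its highest was 169, in CNLX19. The breeds overlapped over nearly the whole range, since the highest count of all was in Holstein and the 2 lowest, CNLX21 and CNLX15, were in Montbeliarde. The means were 139.9 ± 25.9 (SD, n = 5) and 138 ± 32.1 (SD, n = 6). The log2 fold change (log2FC), Montbeliarde over Holstein, was -0.02 with a standard error of 0.22 and a 95% interval from -0.48 to 0.44 (adjusted p = 0.975, edgeR's quasi-likelihood test, adjusted by Benjamini-Hochberg). The interval thus includes differences in both directions. The sign of this value was not fixed, as it was positive without any of CNLX1, CNLX3, CNLX5, CNLX15 and CNLX21, and at 0.0086 when scaled by library totals.

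For *miR-33b*, the Holstein libraries were close together. Their normalized read counts were 699.7 in CNLX1, 748 in CNLX3, 722 in CNLX5, 603 in CNLX7 and 794 in CNLX9. The Montbeliarde libraries were spread out on both sides of this range. Their lowest count was 269.9, in CNLX15, the median was 1091, and the highest was 1564, in CNLX19. In 4 Montbeliarde libraries, namely CNLX13 (1423), CNLX17 (931), CNLX19 and CNLX23 (1251), the count was above the highest Holstein library, in CNLX21 (670.0) it was within the Holstein range, and in CNLX15 it was below every Holstein library.

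**Figure D1:**
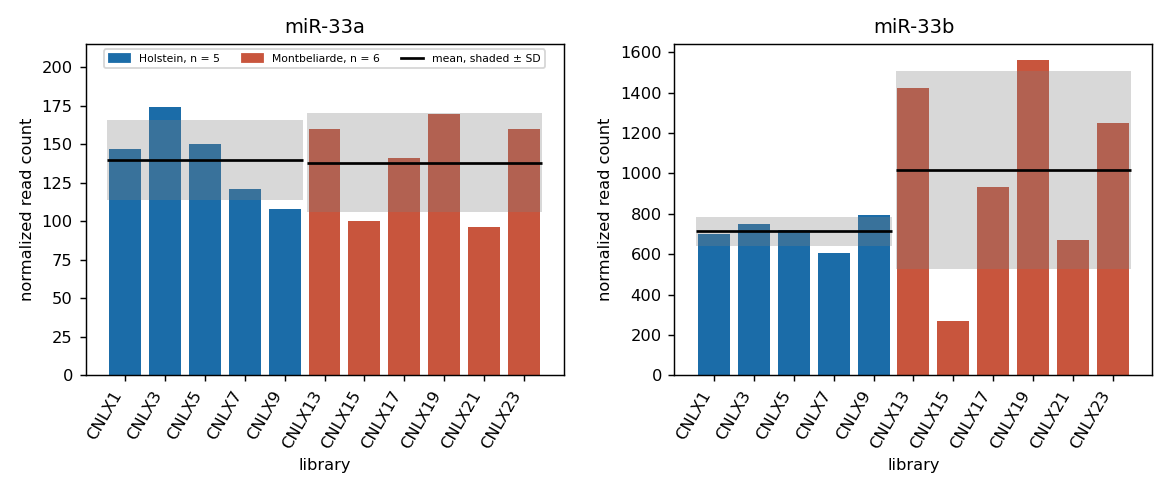
Normalized read counts (y axis, from 0) of miR-33a and miR-33b in each library (x axis), with the breed mean as a line and ± 1 SD shaded. The 5 Holstein bars of miR-33b lie between 603 and 794, and the 6 Montbeliarde bars between 269.9 and 1564.

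For *miR-33b*, the Holstein mean was 713 ± 70.7 (SD, n = 5) and the Montbeliarde mean 1018 ± 491 (SD, n = 6). The log2FC was 0.52 with a standard error of 0.34 and a 95% interval from -0.20 to 1.25 (unadjusted p = 0.144, adjusted p = 0.479 with the same edgeR test). The difference was therefore within the spread between cows. Of the pair, 0 of 2 passed an adjusted p of 0.05 with edgeR, DESeq2 or limma, and 0 of 2 reached 0.05 unadjusted with edgeR. Over all 550 miRNAs tested, 0.364% passed the adjusted threshold with edgeR, 4.24% of the 495 with an adjusted p passed it with DESeq2, and 14.2% reached 0.05 unadjusted with edgeR. Nor were the breeds separated in every library for either miRNA, as they were for 2% of those tested. The size of the log2FC of *miR-33b* was larger than that of 69.8% of the miRNAs tested, itself included.

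A single library weighed on the *miR-33b* comparison. Without CNLX15, the log2FC was 0.79 with a standard error of 0.21 and an unadjusted p of 0.00152, and the adjusted p was 0.135 in edgeR's test over 542 miRNAs. It did not pass the threshold, and 14.6% of those miRNAs reached 0.05 unadjusted. That of *miR-33a* without CNLX15 was 0.13 (adjusted p = 0.830 from the same test). With limma-voom on all 11 libraries, the log2FC of *miR-33b* was 0.31 (adjusted p = 0.733).

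The spread between cows was wide for *miR-33b* in Montbeliarde and narrow in Holstein. The standard deviation of log2(normalized read count + 1) for *miR-33b* was 0.15 in Holstein and 0.95 in Montbeliarde, a ratio of highest to lowest count of 1.31 and 5.79. For *miR-33a* the standard deviations were 0.27 and 0.36, and the ratios 1.61 and 1.76. Among the 356 miRNAs whose mean was 10 or more, the standard deviation of *miR-33b* in Montbeliarde was above that of 88.8%, and in Holstein above that of only 16.6%. Montbeliarde libraries were more variable for 84.6% of these miRNAs, with medians of 0.26 in Holstein and 0.48 in Montbeliarde, so a wider spread in this breed was common and is not particular to *miR-33b*. A single library made up much of the wide spread. Without CNLX15, the standard deviation of *miR-33b* in Montbeliarde was 0.50 and the ratio 2.33, with a standard deviation above that of 68.8% of the 356 miRNAs, and Montbeliarde was more variable for 75.8% of them. The difference in spread between breeds was not tested.

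Counting error was small beside this spread. Raw counts of *miR-33b* were between 216 and 1615 reads per library, which gives a counting error of 2.49 to 6.80% of the count, beside a coefficient of variation between cows of 9.91% in Holstein and 48.2% in Montbeliarde, or 31.3% there without CNLX15. In CNLX15, with 9137882 counted reads in all, the 216 reads have an exact Poisson 95% interval of 188 to 247 reads, against 609 to 1197 reads in the Holstein libraries. Raw counts of *miR-33a* were between 80 and 249 reads, with a counting error of 6.34 to 11.2%, and its coefficients of variation were 18.5% and 23.3%. Such intervals describe counting error alone, because copies made by PCR cannot be separated from original molecules.

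Since the pair is read from the same library, the ratio of its raw counts needs no normalization. In Holstein, *miR-33b* had 4.77, 4.30, 4.81, 5 and 7.34 reads per *miR-33a* read in CNLX1, CNLX3, CNLX5, CNLX7 and CNLX9. In Montbeliarde, the lowest ratio was 2.70, in CNLX15, the median was 7.39, and the highest was 9.23, in CNLX19. Apart from CNLX15, the Montbeliarde libraries had at least 6.60 reads of *miR-33b* per *miR-33a* read, a level reached in Holstein by CNLX9 only. The log2 ratio of *miR-33a* to *miR-33b* averaged -2.36 ± 0.29 (SD, n = 5) for Holstein and -2.71 ± 0.66 (SD, n = 6) for Montbeliarde. The difference of -0.35 did not exceed the spread between cows (p = 0.310, two-sided exact permutation test over the 462 possible splits into 5 and 6). The pair was thus not shown to change unequally between breeds. The difference of the breed medians was -0.62 (exact permutation test, p = 0.0909). Without CNLX15 the difference of means was -0.60, with p = 0.0238 in the same exact test, and no other library changed the call when left out.

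**Figure D2:**
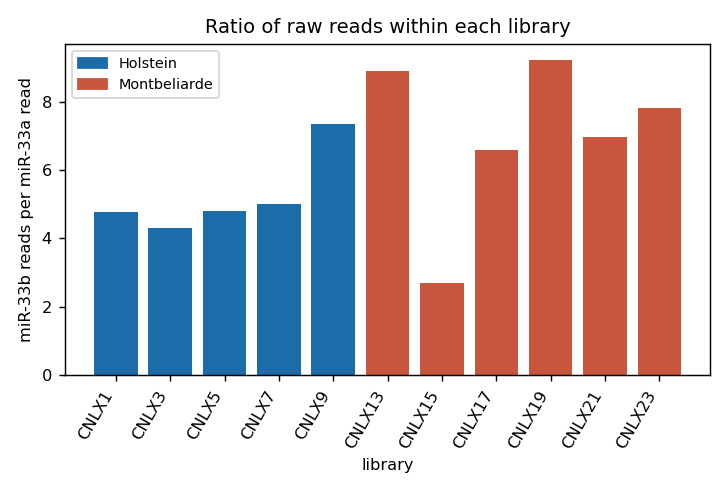
Raw miR-33b reads per miR-33a read (y axis, from 0) in each library (x axis), coloured by breed. CNLX15 is the lowest of all at 2.70, and the other Montbeliarde libraries are between 6.60 and 9.23.

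The levels of the pair were positively correlated over the 11 libraries, with Montbeliarde libraries deciding whether the relation passed 0.05. Over the 11 libraries, on log2(normalized read count + 1), Pearson's r between *miR-33a* and *miR-33b* was 0.69 (permutation test, p = 0.0134) and Spearman's rho was 0.67 (permutation test, p = 0.0277). On deviations from the breed means, r was 0.73 (permutation test, p = 0.00292) and rho 0.68 (permutation test, p = 0.0254). That test shuffled the deviations across both breeds and made no allowance for the fitted breed means. Their spread in *miR-33b* was unequal, with standard deviations of 0.15 in Holstein and 0.95 in Montbeliarde. The p-values on deviations, and the adjusted values below that draw on them, may therefore be too small. Within the 6 Montbeliarde libraries alone, r was 0.87 (exact permutation test, p = 0.0111) and rho 0.89 (exact permutation test, p = 0.0333). Adjusted over these 3 sets of libraries with the Benjamini-Hochberg procedure, the p-values of r were 0.0134, 0.00876 and 0.0134, and those of rho were 0.0333 in each set. No correlation was computed within Holstein, for which 6 libraries were required. There, CNLX9 had the lowest *miR-33a* and the highest *miR-33b* count. The other Holstein libraries had the same order in both miRNAs, rising from CNLX7 through CNLX1 and CNLX5 to CNLX3. Leaving CNLX9 out gave r of 0.74 and rho of 0.77 over the libraries of both breeds. The rise is not particular to CNLX9, as leaving CNLX3 out gave 0.77 and 0.81. Without CNLX15 and CNLX21, the 2 libraries farthest from the median of *miR-33a*, r was 0.53 (exact permutation test, n = 9, p = 0.143), so that the relation stayed positive but was no longer past the threshold without those libraries. Without CNLX15 alone it was 0.57 (permutation test, p = 0.0814). Spearman's rho was less stable. It was between 0.59 and 0.64, with permutation p of 0.0539 to 0.0805, without any of CNLX13, CNLX15, CNLX19, CNLX21 and CNLX23, and 0.61 (permutation test, p = 0.0525) on TMM-scaled counts. On those counts r was 0.70 (permutation test, p = 0.00945).

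**Figure D3:**
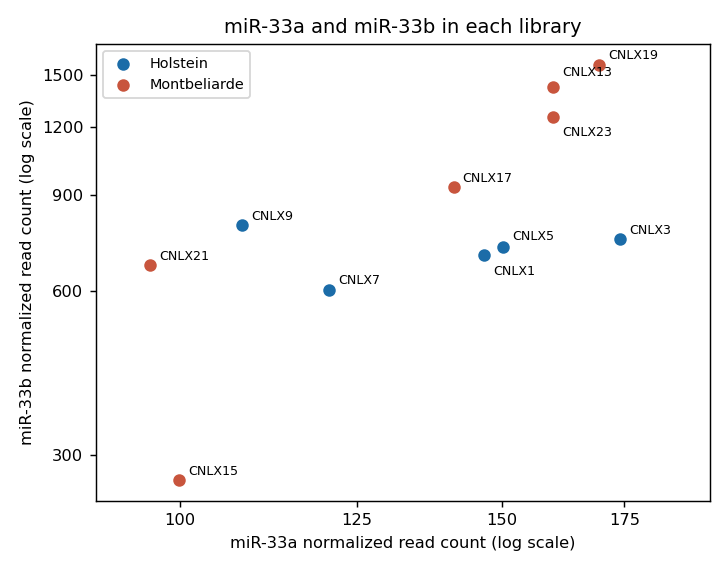
Normalized read count of miR-33b against that of miR-33a, both axes on a log scale, with 1 point per library. The Montbeliarde points run from CNLX15 and CNLX21 at the lower left to CNLX19 at the upper right, with r of 0.87. The Holstein points lie between 603 and 794 in miR-33b. Apart from CNLX9, which has the least miR-33a and the most miR-33b of them, they rise together.

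The libraries also differed in the miRNAs that mark cell types. A biopsy of whole tissue holds several cell types, and fewer cells of a type and less RNA per cell cannot be told apart in such data. The mammary epithelium list (*miR-200a*, *miR-200b*, *miR-200c*, *miR-141*, *miR-429* and *miR-205*, with *miR-203* not analysed here) was present in every library. It held 3.62 to 4.78% of the counted reads in Holstein and 1.59 to 4.63% in Montbeliarde. This share is mainly that of *miR-141*, with means of 310902 and 188093, the next being *miR-200c* with 52451 and 34374. Its members did not move alike between breeds, with log2FC of -0.74 for *miR-141*, -0.61 for *miR-200c*, -0.33 for *miR-429*, -0.10 for *miR-200b*, -0.04 for *miR-200a* and 0.38 for *miR-205*, none past the adjusted threshold with edgeR. The stroma and smooth muscle list (*miR-143*, *miR-145*, *miR-199a-3p*, *miR-199a-5p* and *miR-214*) held 15.97 to 21.4% in Holstein and 21.99 to 33.9% in Montbeliarde. The most abundant of these, *miR-143*, had mean counts of 1838345 and 2757166, and the next, *miR-199a-3p*, 6009 and 9643, so that the stromal share is mainly that of *miR-143*. The log2FC was 0.58 for *miR-143*, 0.67 for *miR-199a-3p*, 0.54 for *miR-199a-5p*, 0.83 for *miR-214* and -0.27 for *miR-145*, again with 0 past the adjusted threshold. Unadjusted, 2 of these 5 (higher in Montbeliarde) and 2 of the 6 epithelial miRNAs (higher in Holstein) reached 0.05 with edgeR. The share over all miRNAs tested was 14.2%. *miR-3604* had 0.976 to 0.988 times the counts of *miR-199a-3p*, and they may share reads.

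Within Montbeliarde, the 2 libraries with the least *miR-33b* had the least epithelial and the most stromal signal. The epithelial share was 1.59% in CNLX15 and 1.87% in CNLX21, and the stromal share 33.9% and 32.9%. In the 4 other Montbeliarde libraries, where *miR-33b* was between 931 and 1564, the epithelial share was between 2.60 and 4.63% and the stromal share between 21.99 and 28.6%. The order was not the same throughout, as CNLX19 had the most *miR-33b* with an epithelial share of only 2.60%. Every Holstein library had a higher epithelial share than 5 of the 6 Montbeliarde libraries and a lower stromal share than all 6, with less *miR-33b* than those 4. The part of these shares in the level of *miR-33b* was not tested.

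**Figure D4:**
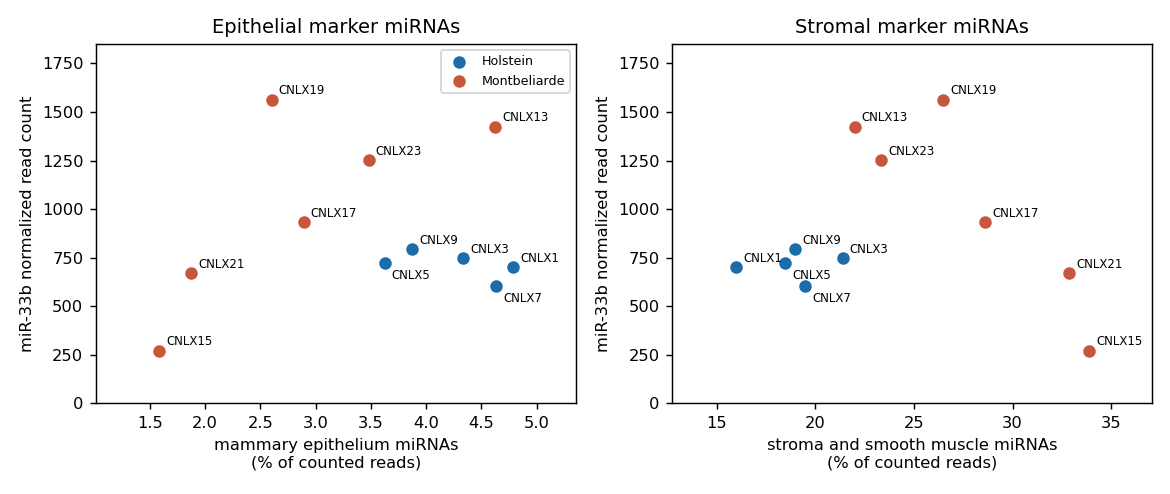
Normalized read count of miR-33b (y axis, from 0) against the share of counted reads held by the epithelial and by the stromal marker miRNAs (x axes, in %), with 1 point per library. Among the Montbeliarde points, CNLX15 and CNLX21 have the lowest epithelial and the highest stromal shares.

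CNLX15 was at the end of the range in several other markers too, in some of them close to CNLX21. It had the lowest count of the 11 libraries for 4 of the 6 epithelial miRNAs, while *miR-141* was the 3rd and *miR-205* the 7th from the lowest, and the highest for 4 of 5 stromal and 4 of 6 leukocyte miRNAs. The leukocyte list (*miR-142-3p*, *miR-142-5p*, *miR-150*, *miR-155*, *miR-223* and *miR-146a*) held 0.415% of its reads, against 0.216 to 0.404% in the other libraries. For the endothelial list (*miR-126-3p* and *miR-126-5p*) the share was 2.23%, against 2.47 to 3.26%. The erythroid list (*miR-144*, *miR-451* and *miR-486*) held 0.242%, against 0.243 to 0.526%. CNLX21 was next to CNLX15 in both the leukocyte list, at 0.404%, and the erythroid list, at 0.243%. The skeletal muscle list (*miR-1* and *miR-133a*, with *miR-206* not analysed here) held 0.00889%, within the 0.00562 to 0.0167% of the others.

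The miRNAs whose pattern over the 11 libraries was most like that of *miR-33b*, among 342 known miRNAs whose mean was 10 or more, were *miR-2336* (r = 0.88), *miR-139* (r = 0.84) and *miR-532* (r = 0.81). For these, Spearman's rho was 0.84, 0.77 and 0.65. Their lowest count was in CNLX15 in each case, at 102 for *miR-2336*, 571 for *miR-139* and 2449 for *miR-532*. Without the 2 libraries farthest from the median of *miR-33b*, the values of r were 0.71, 0.63 and 0.64. By the same measure, *miR-33a* was the 13th most like *miR-33b*, whereas *miR-33b* was the 4th most like *miR-33a*. The 3 before it were *miR-10166-5p*, *let-7a-3p* and *miR-362-3p*, with r between 0.69 and 0.70 and rho of 0.57, 0.52 and 0.49. These also had their lowest counts in CNLX15, and without the 2 libraries farthest from the median of *miR-33a* their r was 0.20, 0.14 and 0.43. For *miR-33b*, r with *miR-33a* was 0.69 and rho 0.67, and r without those 2 libraries was 0.53. The last 2 values were above those of the 3 miRNAs placed before it, so its place depended on the measure. The miRNAs other than the pair were picked for the highest r, so that their values are a description, with no test.

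Other miRNAs of lipid metabolism gave the setting of the pair. Of 13 miRNAs known for acting on *ABCA1* and sterol efflux, the target most closely tied to *miR-33*, 12 had enough reads to be tested. None passed the adjusted threshold with edgeR, DESeq2 or limma, and 0 of 12 reached 0.05 unadjusted with any of them. The log2FC was negative for 5 and positive for 7, with a median of 0.10, beside 0.03 over all 550 miRNAs tested. The miRNA with the lowest adjusted p was *miR-148a*, which also acts on the LDL receptor and is among the most abundant miRNAs of the MG. In Holstein its mean count was 1072772 ± 107217 (SD, n = 5), and in Montbeliarde 761649 ± 309188 (SD, n = 6), with a log2FC of -0.50 and a 95% interval from -1.09 to 0.09 (adjusted p = 0.405, edgeR). The counts of *miR-148d* were 0.674 to 0.735 times its own in every library, so that reads may be shared.

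Within this group, *miR-10b*, *miR-26a*, *miR-26b*, *miR-27a-3p*, *miR-27b* and *miR-148a* were far more abundant than the pair, the least of them being *miR-27a-3p*, with means of 13669 in Holstein and 15344 in Montbeliarde. The counts of *miR-26a* and *miR-26c* stood in the same ratio in every library, so that their levels are uncertain. *miR-145* was at 3894 in Holstein and 3231 in Montbeliarde, *miR-106b* at 579 and 629, and *miR-128* at 314 and 391. Below *miR-33a* were *miR-144* (79.4 and 99.7), *miR-130b* (53.8 and 67.7) and *miR-758* (7.33 and 6.07). For *miR-302a*, an embryonic miRNA, 1 read was counted in all.

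Of the 9 miRNAs known for acting on SREBPs, lipid synthesis or lipoproteins, or for being made under SREBP control, 8 were tested and none passed with any of the 3 tools. With edgeR, 1 reached 0.05 unadjusted, namely *miR-185*, known for repressing *SCARB1*, the receptor of high-density lipoprotein. The Holstein mean of *miR-185* was 187 ± 48.4 (SD, n = 5) and the Montbeliarde mean 133 ± 29.4 (SD, n = 6), with a log2FC of -0.49 (adjusted p = 0.344, edgeR). With DESeq2 there were 2, *miR-185* and *miR-30c*, and with limma none. Over all miRNAs tested, 14.2% reached 0.05 unadjusted with edgeR, 15.5% with DESeq2 and 12.9% with limma, and shares of 1, 2 and 0 of 8 are read as near this background. The *miR-183* cluster, whose transcription SREBP-2 is known to raise, had log2FC values of -0.12 for *miR-96*, 0.05 for *miR-182* and -0.22 for *miR-183*. For *miR-30c*, which acts on lipoprotein assembly, it was -0.28, for *miR-342* 0.18, for *miR-370* -0.05 and for *miR-223*, a leukocyte miRNA, 0.44. The liver miRNA *miR-122* had 1 read in all.

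The third list held other miRNAs inside metabolic genes. RefSeq places *miR-103* in *PANK2* and *PANK3* and *miR-107* in *PANK1*, genes of pantothenate kinases, which start coenzyme A synthesis. A locus of *miR-378* lies in *PPARGC1B*, a coactivator of SREBP-1 in lipid synthesis, and another in *CALCR*. None of these 3 passed with edgeR, DESeq2 or limma, and 0 of 3 reached 0.05 unadjusted. The log2FC was -0.27 for *miR-103* (adjusted p = 0.459, edgeR), 0.16 for *miR-107* and -0.21 for *miR-378*. The means in Holstein and Montbeliarde were 22463 and 18673 for *miR-103*, 2049.7 and 2291 for *miR-107*, and 5802 and 5056 for *miR-378*, all above *miR-33b*.

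**Figure D5:**
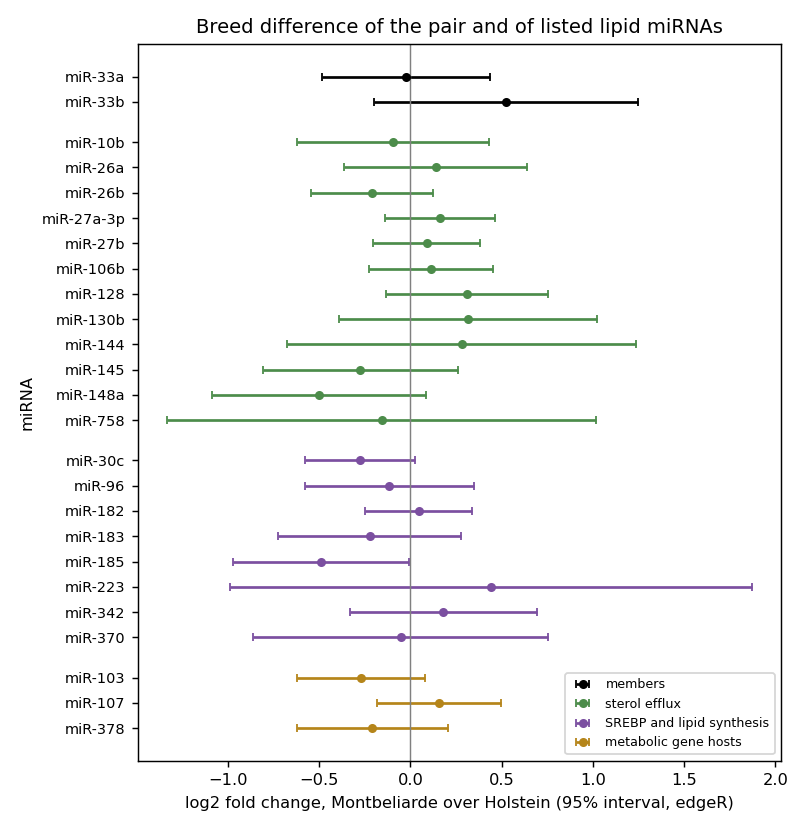
Log2 fold change, Montbeliarde over Holstein (x axis), of miR-33a, miR-33b and the 23 listed lipid miRNAs that were tested, with 95% intervals from edgeR. The interval of miR-33a runs from -0.48 to 0.44 and that of miR-33b from -0.20 to 1.25, and only that of miR-185 does not reach 0.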

How the data were processed

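Small RNA-Seq libraries of 5 Holstein and 6 Montbeliarde mammary biopsies were grouped by the breed in their labels. According to the methods, the authors removed adaptors, retained lengths from 15 to 40 nt, quantified and annotated them in ncPRO-seq, and used miRDeep2 for aligning reads to the btau5.0.1 assembly and for identifying miRNAs. For each miRNA the authors deposited raw read counts in every library and a signal, the normalized read counts, which are the counts divided by DESeq2 size factors (version 1.18.1 in the submitters' processing notes). The other 6 deposited columns, with breed means, fold changes and p-values of the authors' comparison, were not used. How reads matching several miRNAs were counted is not given in the sources used here.

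Breeds were compared on the counts with edgeR 4.0.16 (TMM, glmQLFit with robust fitting, glmQLFTest) over the 550 miRNAs with at least 10 counts in all, and p-values were adjusted over all of them and compared with 0.05. The standard error of a log2FC was derived from its size and the F statistic. DESeq2 1.42.0, limma 3.58.1, other scalings, other filters and each library left out were alternatives. With 1 library per cow, p-values measure the spread between cows. Single values were tested with exact permutation tests, and correlations over 10 or more libraries with 100000 resamples. The scripts were tested on simulated data. Plots were drawn with matplotlib 3.10.9.

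The members and lists were chosen with earlier results of these data known. Named were the pair, the listed miRNAs, the 3 miRNAs nearest in pattern to each and the nearest in level. Mature sequences were not analysed here, nor were miRNAs sharing the seed, which the rule had included.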

Additional observations from a re-analysis of the deposited data

Results flagged for a closer look

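Of 24 combinations of breed and measure (the levels of *miR-33a* and *miR-33b*, their ratio and the shares of the 9 miRNA lists), 1 had a library far from the others of its breed. In Holstein, CNLX9 had 7.34 reads of *miR-33b* per *miR-33a* read, while the 4 others had 4.30 to 5, a gap of 0.770 of the whole range. The limit for flagging a gap was one that chance exceeds in about 1 in 20 groups. It had the lowest *miR-33a* count of the Holstein libraries, 108, and the highest *miR-33b* count, 794. Its 83 reads of *miR-33a* were the fewest in that breed, with an exact Poisson 95% interval of 66.1 to 103.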

How the results depend on the processing

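Neither *miR-33a* nor *miR-33b* passed the adjusted threshold under any alternative run, and *miR-33b* was higher in Montbeliarde under each. With 1 library left out, its log2FC was between 0.41 and 0.79, with adjusted p-values of 0.135 to 0.614, and that of *miR-33a* was between -0.11 and 0.13. Scaling by library totals gave 0.0086 for *miR-33a*. The difference in the log2 ratio of the pair was between -0.60 and -0.25 with 1 library left out, and in the exact permutation test only the value without CNLX15 passed 0.05. On medians it was -0.62, with p = 0.0909 in that exact test. The correlation of the pair, as r, was 0.70 on TMM-scaled counts. It was between 0.57 and 0.77 with 1 library left out, 0.53 without the 2 libraries farthest in *miR-33a* and 0.49 without those farthest in *miR-33b*, CNLX15 and CNLX19. For the correlation, the last of these and leaving out single libraries were chosen after seeing the data. Of all miRNAs, 2 passed with edgeR, 21 with DESeq2, 0 with DESeq2's size factors in edgeR, 1 with library totals and 0 to 6 with 1 library left out. The cause was not tested. The 23 listed lipid miRNAs stayed on the same side of the threshold, and 7 changed sign when a library was left out, with log2FC of -0.21 to 0.11 (*miR-10b*), -0.22 to 0.53 (*miR-144*, and -0.11 with limma), -0.46 to 1.28 (*miR-223*), -0.068 to 0.24 (*miR-26a*), -0.27 to 0.14 (*miR-370*), -0.39 to 0.070 (*miR-758*) and -0.20 to 0.025 (*miR-96*). No paired analysis was made, because each library came from a different cow and the labels pair no cows across breeds.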
